A study of Mus musculus with 12 samples.

Results

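The genes described here move iron and zinc into, through and out of the liver: *Hamp*, *Slc40a1*, *Cp*, *Tfrc*, *Trf*, *Fth1*, *Slc39a14*, *Slc30a1*, *Mt1* and *Mt2*. Every probeset that the array annotation gives to exactly 1 of these 10 genes was taken, which found 29 of the 45101 probesets on the array. Of these, 3 are Affymetrix control probesets for *Tfrc* and were not tested, so 26 probesets of 9 genes remained, among 45037 tested probesets and 18193 genes. *Trf*, which encodes the plasma iron carrier transferrin, has no value here because its probeset is shared with *Srprb*.

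RNA from whole liver was profiled in wild-type mice and in Atf6a-/- mice, which lack the endoplasmic reticulum (ER) stress sensor ATF6α. Both genotypes received either vehicle or 2 mg/kg tunicamycin (TM), an inhibitor of N-linked glycosylation that causes ER stress, and livers were taken 8 h later. The labels list 150 mM dextrose for every animal, with vehicle and with TM. There were 3 animals in each of the 4 groups and 1 array for each animal. Ages and sexes varied, and all animals had been fasted before sacrifice.

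Hepcidin, the product of *Hamp*, is a hormone that hepatocytes secrete. It binds the iron exporter ferroportin, the product of *Slc40a1*, on macrophages, enterocytes and hepatocytes, and causes its degradation, which lowers the release of iron into plasma. The hepatocyte is also the main store of iron, held in ferritin, and a site where free zinc is buffered by metallothioneins and moved by the ZIP importers and ZnT exporters.

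At 8 h of TM, the clearest differences were in transporters. *Slc40a1* fell about 2-fold in both genotypes, and *Slc39a14*, an importer of zinc and iron, rose 2.26-fold in wild-type animals. In Atf6a-/- animals *Slc39a14* stood 1.47-fold above vehicle (adjusted p = 0.0537 in limma). On its brightest probeset the difference between these responses was not called (adjusted p = 0.426). *Slc30a1*, the zinc exporter of the plasma membrane, rose 2.08-fold in Atf6a-/- animals and stood 1.25-fold above vehicle in wild-type animals, and this difference between genotypes passed the test (adjusted p = 0.0175). That call was lost in 3 of 12 fits that left out 1 array, with centring on 2 reference genes and without the 4 arrays that carry Y-linked signal, with adjusted p values from 0.0522 to 0.0714. *Hamp* stood 1.41-fold and 1.46-fold above vehicle, below the fold limit of the calls.

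A gene was called where its brightest probeset passed an adjusted p of 0.05 in limma's moderated test over all tested probesets and differed by more than 1.5-fold. In wild-type animals TM raised 1 and lowered 1 of the 9 measured genes, beside 8.92% of all genes raised and 6.9% lowered. In Atf6a-/- animals it raised 1 and lowered 2, beside 13.1% and 8.21% of all genes. Under TM, 1 of the 9 was higher and 0 were lower in Atf6a-/- than in wild-type animals, beside 2.89% and 1.53% of all genes. The test of the difference in TM response between the genotypes called 1 of the 9 higher and 0 lower, beside 1.06% and 0.748%. The comparisons share arrays: the TM groups and the vehicle groups each enter 3 of the 5. The median differences of the 9 genes with TM, 0.32 log2 units in wild-type and 0.54 in Atf6a-/- animals, stood beside medians of -0.06 and -0.10 over all genes.

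Under vehicle, limma called 0 of the 9 genes between the genotypes and 0% of all genes in either direction. At an unadjusted p under 0.05, 1618 of the 45037 probesets differed, and *Tfrc* was the 1 member that did so by more than 1.5-fold. Of the 9 genes, 0 were called by the methods' t-test, with or without adjustment.

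**Figure D1:**
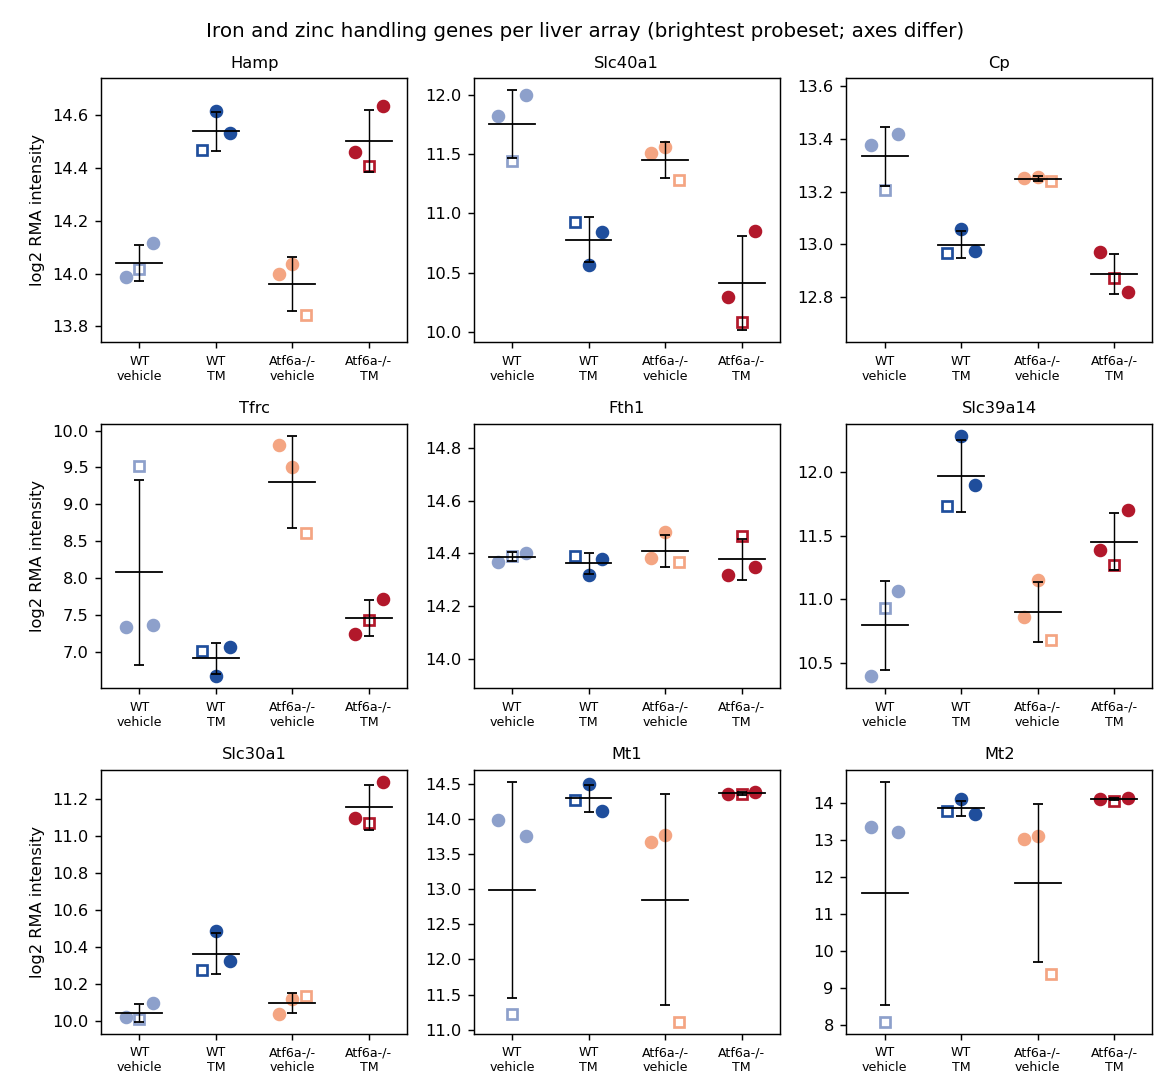
Log2 array signal of each of the 9 measured genes (brightest probeset, vertical axis, scales differ between panels) on the 12 arrays, by group. Points are single animals, open squares are the arrays with Y-linked signal, and lines are the mean ± SD of 3 animals; *Mt1*, *Mt2* and *Tfrc* vary most among the vehicle animals, while *Slc30a1* is highest in Atf6a-/- animals with TM.

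**Figure D2:**
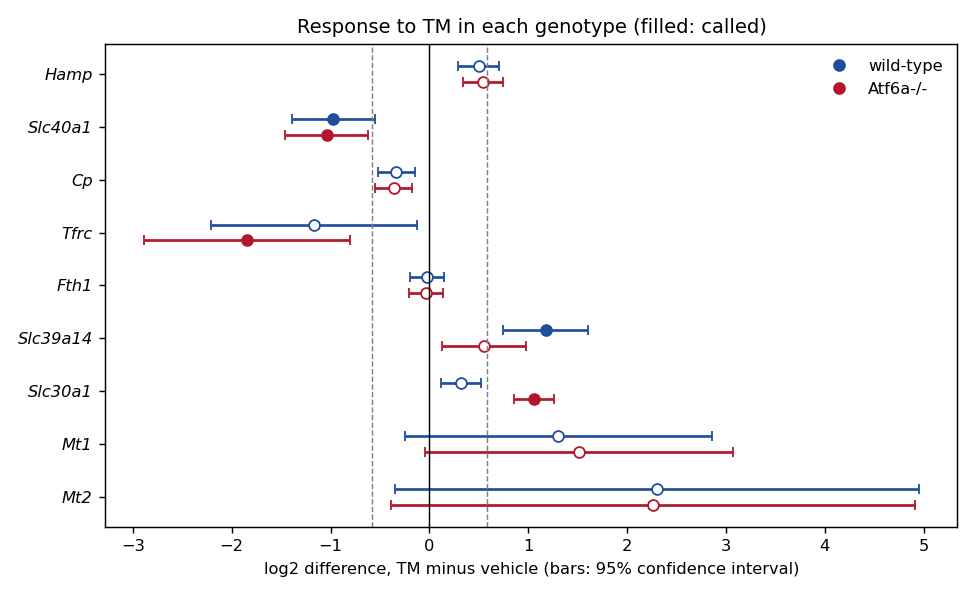
Log2 difference of TM minus vehicle (horizontal axis) for each gene in wild-type and Atf6a-/- animals, with 95% confidence intervals. Filled points were called and dashed lines mark 1.5-fold; the intervals of *Mt1* and *Mt2* include 0 in both genotypes and those of *Slc30a1* do not overlap between genotypes.

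Array medians lay between 4.98 and 5.11 log2 units, and the correlation between arrays between 0.96 and 1.00. The targeted gene *Atf6* read 9.04 ± 0.38 (SD, n = 3) in wild-type and 7.33 ± 0.41 in Atf6a-/- vehicle animals, and 10.97 ± 0.21 and 10.15 ± 0.37 with TM. The genotype differences of -1.71 and -0.82 had adjusted p values of 0.184 and 0.0905 in limma. Which part of the transcript the *Atf6* probeset reads was not analysed here. The 7 measured hepatocyte markers averaged between 14.11 and 14.31 on every array. Of these, *Hnf4a* was called higher with TM in Atf6a-/- animals (0.94, adjusted p = 6.03e-04 in limma). On 1 array of each group the Y-linked gene *Eif2s3y* read above *Xist*: animal 2 of the wild-type vehicle group, animal 1 of the wild-type TM group, animal 3 of the Atf6a-/- vehicle group and animal 2 of the Atf6a-/- TM group. Calls of members that change without these 4 arrays are given both ways.

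The hormone of the set, *Hamp*, gave a signal near the top of the array scale in every liver. Its brighter probeset (1419197_x_at) read 13.99, 14.02 and 14.12 log2 units in the wild-type vehicle animals and 14.47, 14.62 and 14.53 in those with TM. The Atf6a-/- livers read 14.00, 14.04 and 13.84 with vehicle and 14.46, 14.41 and 14.64 with TM. All 6 TM livers were above all 6 vehicle livers, and the genotypes overlapped under both treatments. The differences were 0.50 ± 0.09 (SE) in wild-type and 0.54 ± 0.09 in Atf6a-/- animals, with adjusted p values of 0.0024 and 8.92e-04 in limma. Neither passed 1.5-fold, and the other probeset (1419196_at) gave 0.37 and 0.44. The highest value of any probeset on any array was 14.97, and array signal is known to compress near the top of the scale. The difference between the genotypes in this response was 0.04 (95% interval from -0.24 to 0.33, adjusted p = 0.951).

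The *Hamp* promoter is shown because transcription of hepcidin is known to be driven through a BMP response element and a STAT site. The 120 bases before the start of the RefSeq transcript (GRCm38.p6, chr7:30944030-30944149, minus strand) are given with the letters of these motifs, GGCGCC and TTCNNNGAA, in capitals.
Hamp: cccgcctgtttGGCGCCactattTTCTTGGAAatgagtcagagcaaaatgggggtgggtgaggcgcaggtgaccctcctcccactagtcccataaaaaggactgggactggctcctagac
Counting back from the start, whose preceding base is -1, the matches spanned positions -109 to -104 and -97 to -89. On either strand of the 250 bases before the start, GGCGCC was found in 9.54% and TTCNNNGAA in 7.18% of 27025 mouse genes.

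Of the genes upstream of hepcidin (BMP ligands and receptors, SMADs, haemojuvelin, transferrin receptor partners, and the IL-6 to STAT3 route), 29 of 30 were measured. TM raised 1 and lowered 6 of them in wild-type animals and raised 3 and lowered 6 in Atf6a-/- animals, with medians of -0.11 and -0.14. Over all genes, 8.92% were raised and 6.9% lowered in wild-type animals, and 13.1% and 8.21% in Atf6a-/- animals. *Stat3*, which carries the inflammatory signal to the *Hamp* promoter, fell in both genotypes, with log2 differences of -1.47 ± 0.18 (SE) and -1.78 ± 0.18 and adjusted p values of 1.03e-04 and 1.6e-05 in limma. The kinase *Jak2* fell too (-0.61 and -0.66), as did *Cebpa*, a hepatocyte transcription factor that binds the *Hamp* promoter (-1.13 and -0.86). *Atoh8*, a transcription factor induced by iron and BMP signalling, rose in both genotypes, by 0.68 ± 0.17 in wild-type and 1.98 ± 0.17 in Atf6a-/- animals. That difference of 1.30 ± 0.23 passed the test (adjusted p = 0.0201). *Id1*, another BMP target, rose by 2.00 ± 0.44 in Atf6a-/- animals (adjusted p = 0.00481) and differed by 0.72 ± 0.44 in wild-type animals (adjusted p = 0.328). The difference between these 2 responses, 1.27 ± 0.63, was not called (adjusted p = 0.49). *Id1* differed between the genotypes by -1.04 under vehicle and by 0.23 under TM, and neither was called. Its Atf6a-/- TM livers were spread, at 8.56, 9.01 and 10.82. *Smad6* (-0.05 and 0.24) and *Smad7* (0.31 and 0.74) were not called in either genotype. The ligand *Bmp6* (-0.11 and -0.07) and the co-receptor *Hjv* (0.04 and 0.10) were not called. The ER-bound factor *Creb3l3*, known to act on *Hamp* in ER stress, was not called either (0.32 and 0.30). Of the rest of the list, *Il6ra* was called lower in both genotypes (-1.04 and -0.98). *Acvr1* (-0.62 and -0.14) and *Socs3* (-1.22 and -0.59) were called lower in wild-type animals. *Tfr2* (-0.36 and -0.61) and *Tmprss6* (-0.56 and -0.75) were called lower, and *Fst* (0.45 and 1.19) higher, in Atf6a-/- animals. None of these was called in the test between the responses.

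The genes whose pattern over the 12 arrays was most like that of *Hamp* were *Grpel1*, *Prpf38a*, *Stard3nl*, *Ankrd49* and *Ik*, with Pearson r from 0.978 to 0.986. These are descriptions over 12 arrays that share the treatment groups.

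The exporter *Slc40a1* fell with TM in both genotypes. Its brighter probeset (1417061_at) read 11.82, 11.44 and 11.99 in wild-type vehicle animals and 10.92, 10.56 and 10.84 with TM. Among Atf6a-/- mice it read 11.51, 11.56 and 11.28 with vehicle and 10.30, 10.09 and 10.85 with TM. Every TM liver was below every vehicle liver. The log2 difference was -0.97 ± 0.19 (SE) in wild-type and -1.04 ± 0.19 in Atf6a-/- animals, a fall of 1.96-fold and 2.05-fold, with adjusted p values of 0.00336 and 0.0015 in limma. The dimmer probeset (1448566_at) was called lower in both genotypes too (-0.95 and -0.86). Under TM the genotypes overlapped, and the difference between the responses was -0.06 (95% interval from -0.66 to 0.53).

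Macrophages of the liver, the Kupffer cells, also express ferroportin. Of 8 Kupffer cell and macrophage markers, TM raised 1 (*Cd163*, the haemoglobin scavenger receptor, also in the list of iron and haem genes) and lowered 0 in wild-type animals, and lowered 3 (*Adgre1*, *Marco* and *Csf1r*) in Atf6a-/- animals. Beside this, 8.92% of all genes were raised and 6.9% lowered in wild-type animals, and 8.21% were lowered in Atf6a-/- animals. The median differences of the markers were -0.32 and -0.54. Their mean level per array ranged from 9.01 to 9.73 in wild-type vehicle, 9.12 to 9.36 in wild-type TM, 9.14 to 9.68 in Atf6a-/- vehicle and 8.65 to 9.17 in Atf6a-/- TM animals. The marker *Clec4f* stood at 10.57 ± 0.48 (SD, n = 3), 10.25 ± 0.11, 10.39 ± 0.28 and 10.04 ± 0.23 in these groups. Their part in the lower *Slc40a1* signal was not tested. In whole liver, fewer cells of a type and less RNA per cell cannot be told apart.

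*Cp* encodes ceruloplasmin, the copper ferroxidase that the liver secretes and that loads exported iron onto transferrin. Its brightest probeset (1417494_a_at) read from 13.21 to 13.42 in wild-type vehicle, 12.97 to 13.06 in wild-type TM, 13.24 to 13.26 in Atf6a-/- vehicle and 12.82 to 12.97 in Atf6a-/- TM animals. The TM and vehicle groups did not overlap in either genotype. The differences of -0.34 ± 0.09 (SE) and -0.36 ± 0.09 had adjusted p values of 0.0153 and 0.00707 in limma but were smaller than 1.5-fold. None of the 8 *Cp* probesets was called in any of the 5 comparisons, and their differences with TM ran from -1.17 to 0.15 in wild-type and from -0.98 to 0.10 in Atf6a-/- animals.

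Iron uptake is represented by *Tfrc*, the transferrin receptor. Its brightest probeset (1452661_at) read 7.33, 9.52 and 7.37 in wild-type vehicle animals and 7.0, 6.67 and 7.06 with TM. In Atf6a-/- animals it read 9.80, 9.50 and 8.60 with vehicle and 7.23, 7.43 and 7.71 with TM. The vehicle livers were thus spread over more than 2 log2 units, with 1 wild-type liver at the level of the Atf6a-/- livers, while the TM livers lay close together. With TM *Tfrc* fell by 1.84 ± 0.48 (SE) log2 units, or 3.59-fold, in Atf6a-/- animals (adjusted p = 0.0125 in limma). The difference in wild-type animals was -1.16 ± 0.48 (adjusted p = 0.126), and the test between the 2 responses gave -0.68 ± 0.68 (adjusted p = 0.793). A dimmer probeset (1422966_a_at) was also called lower in Atf6a-/- animals (-0.69), and the dimmest (1422967_a_at, -0.21) was not. On the brightest probeset every Atf6a-/- liver read above every wild-type liver under TM, by 0.55 ± 0.48 (SE) on average (adjusted p = 0.707). That SE rests on a spread pooled over all 4 groups, while the SDs of the wild-type and Atf6a-/- TM livers were 0.21 and 0.24. On the 2 dimmer probesets the genotypes overlapped under TM, with differences of -0.07 and 0.01. Without Atf6a-/- vehicle animal 1 the call of the brightest probeset in Atf6a-/- animals was lost (-1.59, adjusted p = 0.0555).

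The difference in *Tfrc* between the genotypes under vehicle depended on wild-type vehicle animal 2. With all arrays it was 1.23, with a 95% interval from 0.18 to 2.27 and an adjusted p of 1.00. Without that animal it was 1.95 (adjusted p = 0.0362). Without the 4 arrays with Y-linked signal, of which that animal is 1, it was 2.30 (adjusted p = 0.00304), and the difference between the TM responses was -1.69 (adjusted p = 0.018). The wild-type difference with TM was then -0.48 (adjusted p = 0.127 in limma). That fit had 1 array fewer in each group. All these values are of the brightest probeset. With all arrays, the dimmer probesets differed between the genotypes under vehicle by 0.28 (1422966_a_at) and 0.05 (1422967_a_at), and neither was called.

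*Fth1*, the ferritin heavy chain that stores iron, gave the steadiest signal of the set. Its 12 values lay between 14.32 and 14.48 and all groups overlapped. The differences with TM were -0.02 (95% interval from -0.20 to 0.15) in wild-type and -0.03 (from -0.20 to 0.14) in Atf6a-/- animals. *Fth1* too lay within 1 log2 unit of the highest value on the arrays, and ferritin is known to be controlled mainly at translation, which arrays do not read.

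*Slc39a14* encodes ZIP14, the importer of zinc and of iron not bound to transferrin. The brightest of its 4 probesets (1427035_at) read 10.40, 10.93 and 11.06 in wild-type vehicle animals and 11.73, 12.28 and 11.90 with TM. The Atf6a-/- livers read 10.86, 11.15 and 10.68 with vehicle and 11.38, 11.27 and 11.70 with TM. TM and vehicle livers did not overlap in either genotype, and every wild-type TM liver was above every Atf6a-/- TM liver. The gene rose by 1.18 ± 0.20 (SE) log2 units in wild-type animals (adjusted p = 0.00105 in limma). In Atf6a-/- animals it differed by 0.55 ± 0.20 (adjusted p = 0.0537), and under TM the genotypes differed by -0.52 ± 0.20 (adjusted p = 0.21).

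All 4 *Slc39a14* probesets were called higher with TM in wild-type animals, by 1.18 to 1.26 log2 units, and 2 of 4 in Atf6a-/- animals. The probesets disagreed on the size of the genotype difference. For 3 of them the difference between the TM responses ran from -0.64 to -0.59 and was not called. The dimmest, 1457770_at, read 5.41, 5.35 and 4.89 in wild-type vehicle animals, 6.34, 6.37 and 6.55 in wild-type TM animals, 5.57, 5.58 and 5.12 in Atf6a-/- vehicle animals and 4.87, 5.29 and 5.21 in Atf6a-/- TM animals. The 3 wild-type TM livers were above every other liver on it, and the difference between responses was -1.50 ± 0.24 (SE, adjusted p = 0.00923). With the mean of all probesets of the gene, *Slc39a14* was called lower in Atf6a-/- animals under TM (-0.77, adjusted p = 0.0121). Which transcripts these probesets read was not analysed here.

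*Slc30a1* encodes ZnT1, which moves zinc out of the cell and is a known target of the zinc sensor MTF-1. Its brighter probeset (1436164_at) read 10.02, 10.01 and 10.10 in wild-type vehicle animals and 10.28, 10.49 and 10.32 with TM. Among Atf6a-/- mice it read 10.03, 10.12 and 10.13 with vehicle and 11.10, 11.07 and 11.29 with TM. The vehicle livers of both genotypes lay between 10.01 and 10.13, and all 3 Atf6a-/- TM livers were above every other liver. The rise in Atf6a-/- animals was 1.06 ± 0.09 (SE, adjusted p = 5.0e-06 in limma). In wild-type animals the difference was 0.32 ± 0.09 (adjusted p = 0.0291), or 1.25-fold and so not called. Under TM *Slc30a1* was higher in Atf6a-/- than in wild-type animals by 0.79 ± 0.09 (adjusted p = 4.28e-04).

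The difference between the 2 responses of *Slc30a1* was 0.74 ± 0.13 (SE), with a 95% interval from 0.46 to 1.02 and an adjusted p of 0.0175. The other probeset (1422786_at) showed it too, with 0.98 ± 0.17 (adjusted p = 0.0182). The call of the brighter probeset was lost without wild-type vehicle animal 3 (0.71, adjusted p = 0.053), without wild-type TM animal 3 (0.72, adjusted p = 0.0527), without Atf6a-/- vehicle animal 1 (0.71, adjusted p = 0.0567) and without the 4 arrays with Y-linked signal (0.77, adjusted p = 0.0714). It was also lost when each array was centred on the reference genes *Btf3* and *Ppia* (0.71, adjusted p = 0.0522).

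**Figure D3:**
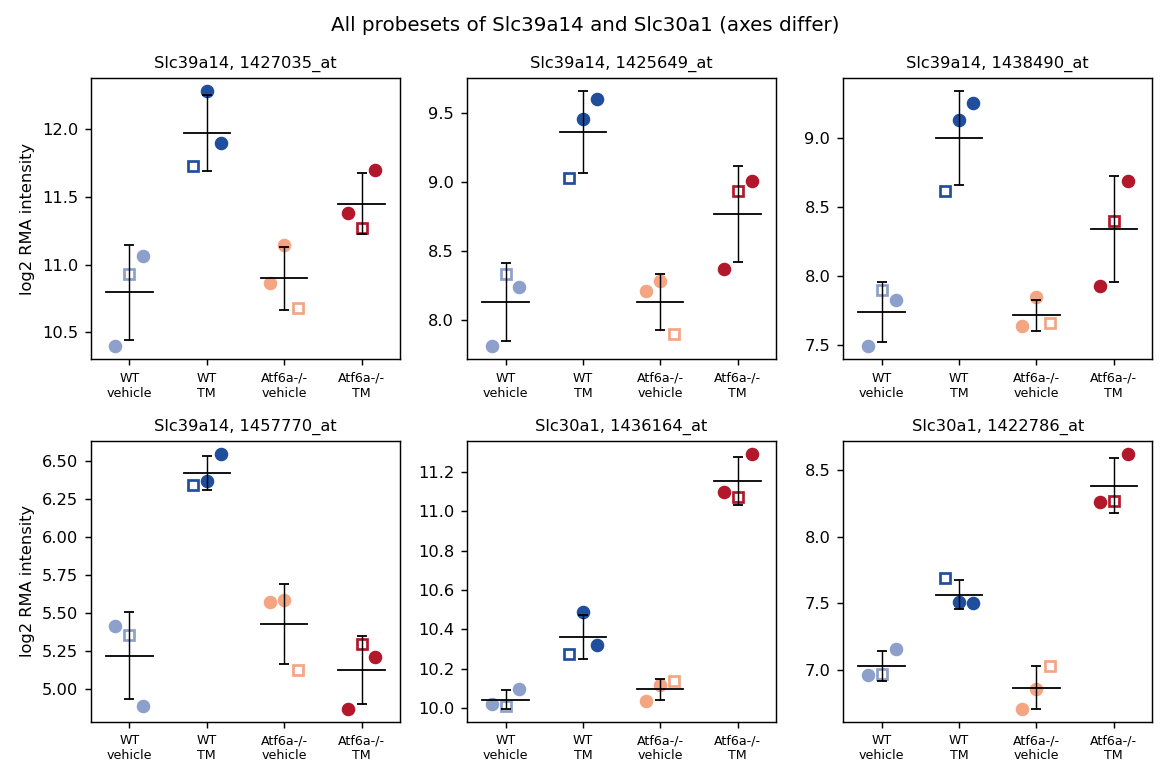
Log2 array signal (vertical axis, scales differ between panels) of the 4 *Slc39a14* and 2 *Slc30a1* probesets on the 12 arrays, by group. Points are single animals, open squares are the arrays with Y-linked signal, and lines are the mean ± SD of 3 animals; wild-type TM livers stand highest on every *Slc39a14* panel by group mean and Atf6a-/- TM livers on both *Slc30a1* panels.

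*Mt1* and *Mt2* encode metallothioneins, small proteins that bind zinc and copper, and are the best known targets of MTF-1. Both were high with TM, and 2 vehicle livers were far below the rest. Neither gene was called in any of the 5 comparisons with all arrays and no covariate. The *Mt2* probeset (1428942_at) read 13.36, 8.09 and 13.23 in wild-type vehicle animals and 13.77, 14.09 and 13.71 with TM. In Atf6a-/- animals it read 13.02, 13.11 and 9.38 with vehicle and 14.10, 14.06 and 14.12 with TM. All TM livers were above all vehicle livers. The low vehicle livers were wild-type animal 2 and Atf6a-/- animal 3. The differences with TM were 2.30 ± 1.22 (SE) in wild-type and 2.26 ± 1.22 in Atf6a-/- animals, with adjusted p values of 0.248 and 0.193 in limma.

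The brighter *Mt1* probeset (1422557_s_at) read 13.98, 11.22 and 13.76 in wild-type vehicle animals and 14.27, 14.50 and 14.11 with TM. The Atf6a-/- livers read 13.66, 13.77 and 11.11 with vehicle and 14.35, 14.35 and 14.38 with TM. The same 2 vehicle livers were low, and again no TM liver was as low as any vehicle liver. Its differences with TM were 1.30 ± 0.72 (SE, adjusted p = 0.266) and 1.51 ± 0.72 (adjusted p = 0.139). With a sex covariate (*Eif2s3y* minus *Xist*) over all 12 arrays, *Mt1* was called higher with TM in Atf6a-/- animals (1.5 log2 units, adjusted p = 0.0437). The dimmer *Mt1* probeset (1451612_at) ran from 4.91 to 8.57 over the 12 arrays and was not called. Under TM the genotypes differed by 0.07 for the brighter *Mt1* probeset and 0.24 for *Mt2*. The 95% intervals ran from -1.49 to 1.62 and from -2.41 to 2.89. Their width rests on a spread pooled over all 4 groups. The SDs of the wild-type and Atf6a-/- TM livers alone were 0.19 and 0.02 for *Mt1* and 0.21 and 0.03 for *Mt2*. On the dimmer *Mt1* probeset every Atf6a-/- TM liver read above every wild-type TM liver. That difference was 1.32 ± 0.64 (SE, adjusted p = 0.376 in limma).

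The 2 low vehicle livers were the vehicle arrays with Y-linked signal. The 4 other vehicle arrays averaged 4.45 log2 units above these 2 for *Mt2* and 2.63 for *Mt1*. With TM the gap between arrays without and with Y-linked signal was 0.09 and 0.02. In the TM livers *Mt2* read from 13.71 to 14.12 and *Mt1* from 14.11 to 14.50. These values lie near the top of the array scale, where signal is known to compress. Without the 4 arrays with Y-linked signal, TM raised *Mt2*, by 0.61 in wild-type animals (adjusted p = 0.0165) and by 1.05 in Atf6a-/- animals (adjusted p = 6.1e-04). *Mt1* was then called in Atf6a-/- animals (0.65, adjusted p = 0.011) and had a difference of 0.43 in wild-type animals (adjusted p = 0.0843). Leaving out wild-type vehicle animal 2 alone also brought *Mt1* and *Mt2* past the limits in Atf6a-/- animals (adjusted p = 0.0461 and 0.0352). That animal is not part of this comparison, and the differences stayed at 1.51 and 2.26. What changed was the estimate of the spread, which is pooled over all 4 groups. With 2 such arrays under each treatment, sex and other properties of these animals cannot be told apart.

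**Figure D4:**
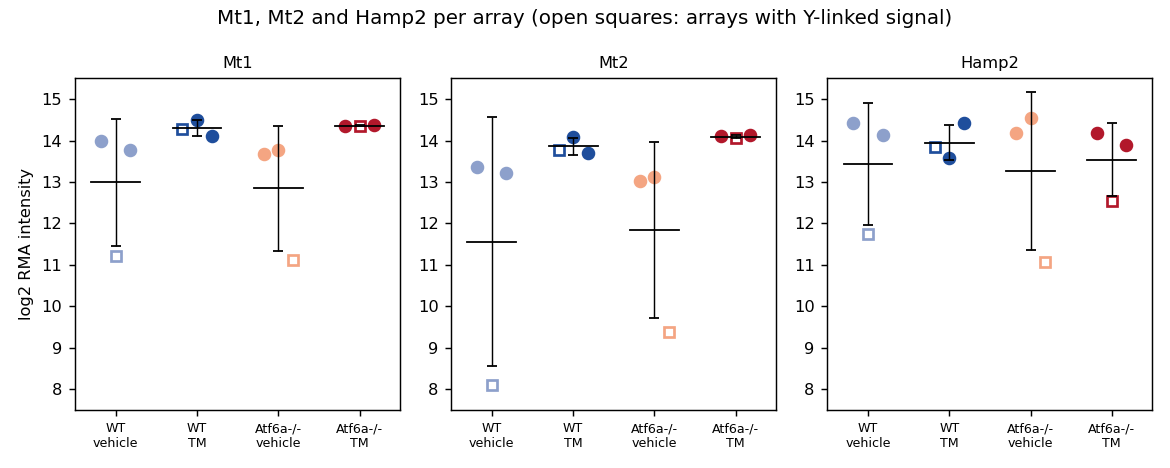
Log2 array signal (vertical axis) of *Mt1*, *Mt2* and the hepcidin paralog *Hamp2* on the 12 arrays, by group, with arrays that carry Y-linked signal as open squares and the mean ± SD of 3 animals as lines. The 2 vehicle arrays with Y-linked signal lie below 12 log2 units in all 3 panels. With TM this gap is absent for *Mt1* and *Mt2*, whose TM signals lie near the top of the array scale.

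The promoters of the MTF-1 targets are shown for the core of the metal response element, searched as TGCACNC and TGCGCNC on both strands. The capitals mark each match. The windows end at or near the RefSeq start (GRCm38.p6, plus strand): chr8:94172368-94172617 for *Mt2*, chr8:94179054-94179083 for *Mt1* and chr1:191906726-191906755 for *Slc30a1*.
Mt2: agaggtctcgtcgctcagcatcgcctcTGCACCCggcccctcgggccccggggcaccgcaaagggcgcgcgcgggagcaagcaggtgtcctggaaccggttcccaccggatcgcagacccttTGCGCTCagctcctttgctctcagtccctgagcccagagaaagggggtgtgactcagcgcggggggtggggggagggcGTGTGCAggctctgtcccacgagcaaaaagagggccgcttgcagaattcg
Mt1: gcggtcccgctgTGCACACtggcgctccag
Slc30a1: aacgggggttccGAGTGCAaagcaaagttt
In the 250 bases before the start, *Mt2* held 3 matches, *Mt1* 1 and *Slc30a1* 1, while *Hamp* and both starts of *Cp* and of *Fth1* held 0. The annotated *Mt1* gene begins at 94178883 and *Slc30a1* at 191906697, both before the starts used here (94179089 and 191906781). Bases after the starts were not searched for this core, so these counts are not totals for the promoters. *Tfrc* has 2 starts in the table, 1 with 2 matches that overlap and 1 with 0. At least 1 match was found in 21.3% and at least 3 in 1.28% of 27025 mouse genes. A match of letters does not show that a factor binds there.

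The genes most like the mean of *Mt1* and *Mt2* over the 12 arrays were *Itpk1*, *Tceal8*, *Map3k21*, *Cenpq* and *Amdhd1*, with Pearson r from 0.927 to 0.971. These values, too, rest largely on the same 2 low vehicle arrays.

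Of the other zinc genes (transporters, further metallothioneins and the sensor *Mtf1*), 25 of 25 were measured. TM raised 5 and lowered 0 in wild-type animals and raised 4 and lowered 1 in Atf6a-/- animals, with medians of 0.09 and 0.11. The shares of all genes raised and lowered were 8.92% and 6.9% in wild-type and 13.1% and 8.21% in Atf6a-/- animals. *Slc39a6*, a ZIP importer, rose by 2.02 ± 0.20 (SE) and 2.65 ± 0.20 in wild-type and Atf6a-/- animals. *Slc39a7*, which releases zinc from the ER, rose by 1.81 ± 0.20 and 1.64 ± 0.20. *Slc30a5* and *Slc30a7*, which carry zinc into the secretory pathway, rose by 1.60 and 1.26 in wild-type animals and by 0.59 and 0.73 in Atf6a-/- animals. For *Slc30a5* this difference between genotypes, -1.01 ± 0.21, passed the test (adjusted p = 0.0411), and its level under TM was lower in Atf6a-/- animals (difference -0.85, adjusted p = 0.0066). *Slc30a3* rose in wild-type animals by 0.91 and was not called in Atf6a-/- animals (-0.22), a difference of -1.14 ± 0.20 (adjusted p = 0.0182). *Mtf1* itself was not called (0.12 and 0.37).

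Of the other iron and haem genes, 42 of 46 were measured. TM raised 6 and lowered 5 in wild-type animals and raised 6 and lowered 12 in Atf6a-/- animals, with medians of -0.06 and -0.11. Among all genes the shares raised and lowered were 8.92% and 6.9% in wild-type and 13.1% and 8.21% in Atf6a-/- animals. *Steap4*, a metalloreductase, fell in both genotypes (-2.62 ± 0.19, SE, and -2.46 ± 0.19). *Lrp1*, the hepatocyte receptor for haem bound to haemopexin, also fell (-1.96 ± 0.16 and -2.22 ± 0.16). The haem exporter *Flvcr1* rose by 1.81 ± 0.13 and 2.05 ± 0.13. *Blvra*, which reduces biliverdin, fell in Atf6a-/- animals by 1.82 ± 0.11 and differed by -0.53 ± 0.11 in wild-type animals. The difference between these responses was -1.29 ± 0.16 (adjusted p = 0.00215), the 1 call of this list in that test. In that test 1.06% of all genes were called higher and 0.748% lower. The paralog *Hamp2* (1436643_x_at) was not called in any comparison. It read 14.43, 11.75 and 14.14 in wild-type vehicle and 14.18, 14.54 and 11.08 in Atf6a-/- vehicle animals, low in the same 2 livers as the metallothioneins. *Hamp* read 14.02 and 13.84 in these 2, the latter its lowest value of the 12 arrays.

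**Figure D5:**
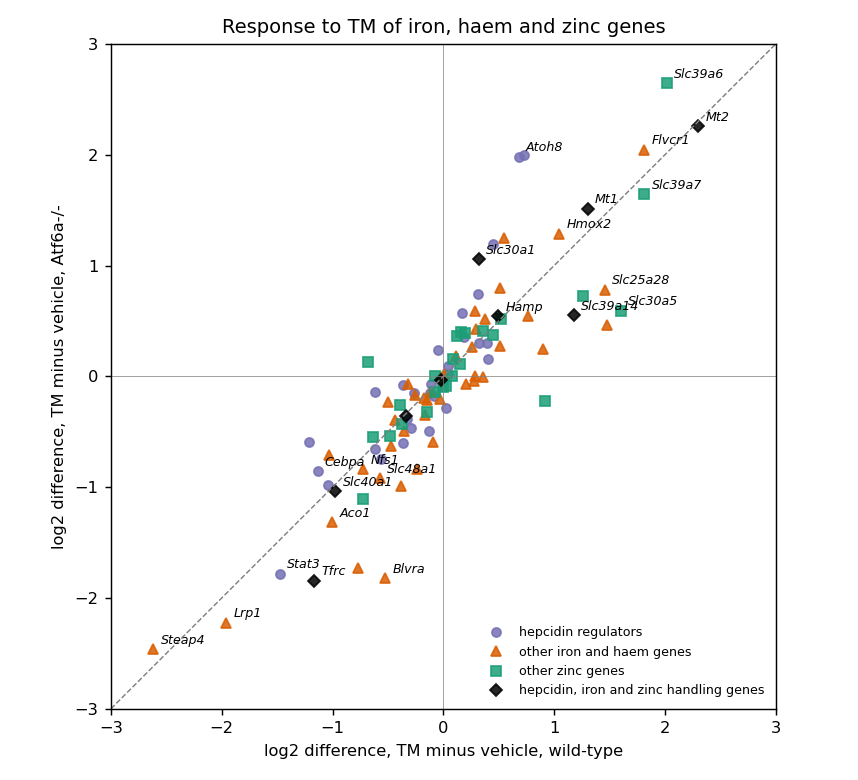
Log2 difference of TM minus vehicle in wild-type (horizontal axis) against Atf6a-/- animals (vertical axis) for the members and the 3 lists of hepcidin regulators, other iron and haem genes and other zinc genes, 1 point per gene (brightest probeset), with the dashed line marking equal values. *Slc30a1* and *Atoh8* lie above the line and *Slc39a14*, *Slc30a5* and *Blvra* below it.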

How the data were processed

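Liver RNA of 12 mice was hybridised to Affymetrix mouse arrays, 1 per animal, and the authors deposited RMA values on the log2 scale, which were used as given. The submitters' processing notes name RMA, affy and limma, with versions not given in the sources used here. Whether these arrays were normalized together with the later time point of the study is not given either. Groups came from the sample titles. In R 4.3.3, limma 3.58.1 fitted 1 mean per group over all 12 arrays (8 residual degrees of freedom), and 5 contrasts were tested with moderated statistics: TM against vehicle in each genotype, the genotypes under each treatment, and the difference between the TM responses. Benjamini-Hochberg adjustment ran over 45037 probesets, with 64 controls left out. Calls needed an adjusted p under 0.05 and more than 1.5-fold. The fold limit is that of the study, which set its limit of 0.05 on p without stating an adjustment. The fit was tested on simulated data.

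A gene was read by its brightest probeset naming it alone. Of the tested probesets, 34945 named 1 gene, 932 several and 9160 none. All members were named, together with the 4 called genes of each pathway list with the largest limma statistic, the 5 genes most like *Hamp* or the metallothioneins, and checks. *Id1*, *Bmp6*, *Hjv*, *Creb3l3*, *Mtf1*, *Hamp2*, *Clec4f*, *Cd163*, *Adgre1*, *Marco*, *Csf1r*, *Slc30a3*, *Cyp2b9* and *Sult3a1* were named after their values were seen. So were *Smad6*, *Smad7*, *Hnf4a*, *Il6ra*, *Acvr1*, *Socs3*, *Tfr2*, *Tmprss6* and *Fst*. The members and lists were chosen with earlier results of these data known.

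Alternatives covered normalization, centring on *Btf3* and *Ppia* (the *Ppia* probeset also names a pseudogene), fold and p limits, variance estimation, array weights, dim probesets, probeset summaries, the methods' t-test, the animal number as a block, sex (*Eif2s3y* minus *Xist*) and leaving out each array. With 3 arrays a group, the number of arrays limits precision, and an exact permutation test of 3 against 3 cannot go below 0.1. Sequences came from the RefSeq table of GRCm38.p6. *Slc40a1*, *Slc39a14* and *Trf* promoters were not analysed here.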

Additional observations from a re-analysis of the deposited data

Results flagged for a closer look

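Among the members, limma's test of the difference between genotypes in the response to TM singled out *Slc30a1* on both probesets, by 0.74 (1436164_at) and 0.98 (1422786_at) log2 units more in Atf6a-/- animals. The same test singled out the dimmest *Slc39a14* probeset (1457770_at), whose response was smaller in Atf6a-/- animals by -1.50. In the lists, the response of *Atoh8* was larger in Atf6a-/- animals by 1.30. That of *Blvra* was more negative by -1.29, that of *Slc30a3* was lower by -1.14 and that of *Slc30a5* was lower by -1.01. In each of these probesets the 3 arrays of a group are too few for a test of outlying animals.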

How the results depend on the processing

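Of 1273 alternative values of single members, 1184 kept direction and call, 14 lost and 23 gained the call, and 52 changed sign, none of them with a call under either setting. The cause was not tested. The number of members called with TM in wild-type animals (2) was 5 with no fold limit, 1 with a 2-fold limit and 0 by the methods' t-test after adjustment, and 2 with any array left out. In Atf6a-/- animals (3) it was 5 without the arrays with Y-linked signal, 5 with no fold limit, 1 by the methods' t-test after adjustment and from 2 to 5 with an array left out, 5 without wild-type vehicle animal 2 or Atf6a-/- TM animal 2. Between the genotypes under TM (1) it was 0 with a 2-fold limit, 0 by the methods' t-test after adjustment and 2 with the mean of all probesets. Under vehicle (0) it was 1 without the Y-signal arrays, 1 with unadjusted p and from 0 to 1 with an array left out, 1 without wild-type vehicle animal 2. For the difference between responses (1) it was 0 centred on *Btf3* and *Ppia*, 0 with a 2-fold limit, 2 with unadjusted p and from 0 to 1 with an array left out. Without the Y-signal arrays it stayed 1, with *Tfrc* called lower in place of *Slc30a1*. In that test the methods' t-test and the fit of only the compared arrays were not run, and *Fth1* has no value without _s_at, _x_at and _a_at probesets. With the animal number as a replicate block the counts were 2, 3, 1, 0 and 1 in the same order, and all 45 single calls were the same. Deviations of equally numbered animals from their group means correlated from -0.476 to 0.394. With means of 3 arrays, these values cannot decide whether equal numbers pair the animals.

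Signs changed as follows, all uncalled. For *Fth1*, the difference between responses was 0.0059 with quantile and 0.0095 with cyclic loess normalization, where its TM differences were 0.064 and 0.074 in wild-type and Atf6a-/- animals. Without the Y-signal arrays, *Fth1* between genotypes under TM was -0.015, *Mt2* under vehicle -0.23, and the difference between responses was 0.24 for *Slc40a1*, 0.024 for *Cp* and 0.44 for *Mt2*. With array weights the latter was 0.0053 for *Cp* and 0.17 for *Mt2*. With the mean of all probesets, the genotypes under vehicle differed by -0.055 for *Slc30a1* and 0.25 for *Mt1*, and the responses by 0.011 for *Slc40a1*. Without _s_at, _x_at and _a_at probesets, *Mt1* under vehicle was 0.63 and the *Cp* difference between responses 0.075. With each array left out in turn, the difference between responses ran from -0.022 to 0.092 for *Hamp*, -0.28 to 0.099 for *Slc40a1*, -0.052 to 0.028 for *Fth1*, -0.068 to 0.037 for *Cp*, -0.66 to 1.09 for *Mt1* and -1.27 to 1.69 for *Mt2*. Between genotypes under TM it ran from -0.10 to 0.011 for *Hamp*, -0.029 to 0.046 for *Fth1* and -0.022 to 0.17 for *Mt1*. Under vehicle it ran from -0.012 to 0.044 for *Fth1*, -0.096 to 0.24 for *Slc39a14*, -1.02 to 0.73 for *Mt1* and -1.46 to 1.51 for *Mt2*. *Fth1* with TM in Atf6a-/- animals ran from -0.077 to 0.0032.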

Other observations

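The vehicle arrays with Y-linked signal, 2 of 6, were at least 2 log2 units below the lowest other vehicle array on 25 tested probesets of 17 genes. With TM, the 2 arrays with Y-linked signal were so on 11 probesets, and 11 were shared by both treatments. *Mt2* had a vehicle gap of 3.64 log2 units by this measure and *Mt1* of 2.44, while with TM the lowest array without Y-linked signal lay 0.36 and 0.24 below the highest with it. For *Hamp2* the vehicle gap was 2.39. *Hamp* had a gap of -0.03, that is, its arrays overlapped. The largest gaps in vehicle animals among named genes were those of *Cyp2b9* (6.31) and *Xist* (5.38), with *Sult3a1* at 5.05, and these 3 kept gaps of 4.27, 5.74 and 6.88 with TM.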
